A study of Saccharomyces cerevisiae Sigma1278b with 62 samples.

Results

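The yeast strains asc1-M1X and asc1-D109Y were compared directly with each other, without a wild type library, to ask how cells that make no Asc1 protein differ from cells that make an altered Asc1 known as a ribosome-binding mutant. The comparison was defined by the sample labels and holds 8 counted libraries, made from 10 of the 62 samples of the series. Each strain had 2 replicates, which carry different strain numbers in the labels and so are separate isolates. Each replicate gave a ribosome footprint (FP) library and a total RNA library from the same cell extract. The FP library of replicate 1 of both strains also holds reads of a second library preparation.

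Both strains are of the Sigma1278b background, carry the altered allele in place of ASC1 at its own locus with no marker left behind, and were grown in rich medium with 2% glucose (YPAD) at 30 °C. All cultures received 0.1 mg/ml cycloheximide, an inhibitor of elongation, for 2 min before harvest, and total RNA was selected for poly(A) tails with oligo-dT. In asc1-M1X the start codon of ASC1 is a stop codon, so that the protein is lost while SNR24, a small nucleolar RNA in the intron of ASC1, stays in place. In asc1-D109Y the protein is made with an aspartate changed to tyrosine. The change is known to weaken its binding in sedimentation of extracts, a step that can itself strip factors from ribosomes. How much of the altered protein sits on ribosomes in these cells was not measured by these libraries, so the strain is not taken here as one that lacks Asc1 on ribosomes. Without a wild type in the comparison, a difference does not say which of the 2 strains has moved.

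Asc1, called RACK1 in animals, is a WD-repeat protein on the head of the small ribosomal subunit, near the point where mRNA leaves the ribosome. It is known for its part in the handling of stalled ribosomes and in signalling. Footprints are the mRNA fragments that ribosomes shield from nuclease, and their number on a gene follows both how much mRNA there is and how densely ribosomes occupy it. Translational efficiency (TE) is the footprint level divided by the total RNA level of the same gene. A gene whose footprints and mRNA differ equally has no difference in TE.

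Reads on ASC1 gave the check of the labels. The FP libraries held 249 and 179 ASC1 reads in asc1-M1X, against 49568 and 40770 in asc1-D109Y. The total RNA libraries held 15435 and 14152 ASC1 reads in asc1-M1X, against 35664 and 43540 in asc1-D109Y. Footprints of ASC1 were thus nearly lost in both asc1-M1X isolates, while its mRNA was present in all libraries, on a gene that also holds SNR24. In RPM, the reads of a gene scaled to a common library size, ASC1 mRNA stood at 2246 and 2063 in asc1-M1X and at 6226 and 5791 in asc1-D109Y, a log2 difference of -1.48 (SE 0.07, adjusted p = 8.1e-09). TE of ASC1 was 0.0122 and 0.00989 in asc1-M1X and 1.04 and 1.1 in asc1-D109Y, a log2 difference of -6.58 (SE 0.11, adjusted p = 7.64e-17). Every adjusted p-value in the text is from the quasi-likelihood test of edgeR, adjusted by Benjamini and Hochberg over all genes tested, and log2 differences are asc1-M1X minus asc1-D109Y. The change of a single residue in asc1-D109Y leaves no trace in counts per gene, so that label could not be checked.

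FP libraries held 8695026 and 8454056 reads on ORFs in asc1-M1X and 8048862 and 6658918 in asc1-D109Y, and the 4 total RNA libraries held between 6056934 and 7840461. Of 5554 ORFs of the nuclear genome in the table, 4941 reached 128 reads summed over the footprint libraries and also 128 summed over those of total RNA, and were tested. The 7 a-cell genes summed to 11956 to 15503 reads per library in asc1-M1X and 8990 to 17572 in asc1-D109Y. The 4 alpha-cell genes summed to 151 to 663 reads in asc1-M1X and 92 to 533 in asc1-D109Y, nearly all on STE3 (87 to 176 reads per library) and SAG1 (5 to 490), while the pheromone genes MF(ALPHA)1 and MF(ALPHA)2 held 0 to 11. Across genes, the log2 difference between the 2 replicates of a strain had an SD of 0.15 in asc1-M1X and 0.17 in asc1-D109Y for FP, and 0.14 and 0.16 for total RNA. The difference between strains spread more widely, with an SD over genes of 0.46 for FP and 0.32 for total RNA within replicate 1.

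The strains differed most widely in footprints. Of 4941 genes, 2554 (51.7%) differed in FP, 1301 of them higher in asc1-M1X (26.3%) and 1253 lower (25.4%). Total RNA differed for 1620 genes (32.8%), 825 higher in asc1-M1X (16.7%) and 795 lower (16.1%). Most differences were small, with a median log2 difference of 0.41 among the higher FP calls and -0.37 among the lower ones, and of 0.38 and -0.29 for total RNA. The direction of calls depended on scaling: by library size alone the median of all genes moved up by 0.12 in both, and the calls split 1921 higher to 796 lower in FP and 1621 to 339 in total RNA. Differences are therefore relative to the bulk of genes.

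TE differed for 829 genes (16.8%), 502 of them higher in asc1-M1X (10.2%) and 327 lower (6.62%), with a median log2 difference of 0.43 in the higher and -0.43 in the lower group. Because FP and total RNA of one culture share an extract, the culture can be taken as a block. This fit gave 1404 genes, 755 higher and 649 lower, among them all 829. Its adjusted p-values were far smaller at nearly the same differences, 7.53e-170 against 7.64e-17 for ASC1 and 3.72e-39 against 1.92e-06 for GLY1. The replicate deviations of FP and total RNA correlated only weakly over genes, with r of 0.15 in asc1-M1X and 0.25 in asc1-D109Y. Whether this fit understates the spread was not tested, so calls made by it alone are not counted as evidence of a difference. Leaving out both libraries of a culture, with the lone remaining culture assumed to vary like the other strain, left 509 calls without replicate 1 of asc1-M1X, 270 without its replicate 2, 490 without replicate 1 of asc1-D109Y and 529 without its replicate 2. The number of TE calls thus depended on the culture left out, and higher calls outnumbered lower ones each time. The TE difference of replicate 1 and that of replicate 2 correlated across the 4941 genes with r = 0.70, a description over genes whose values share the same libraries.

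Genes with a TE call were sorted by their calls in footprints and mRNA. Of the 502 genes with higher TE, 248 had more footprints with total RNA not past the threshold, 104 had more of both, and 136 had less total RNA, of which 75 did not differ in FP by the test. Of the 327 genes with lower TE, 184 had fewer footprints with total RNA not past the threshold, 69 had fewer footprints and less total RNA, and 65 had more total RNA, of which 39 did not differ in FP by the test. Over the 4941 genes the FP difference and the total RNA difference had an r of 0.73. Taking footprints from replicate 1 and mRNA from replicate 2 gave 0.70, and the opposite choice gave 0.66, descriptions over genes of the same 8 libraries.

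**Figure D1:**
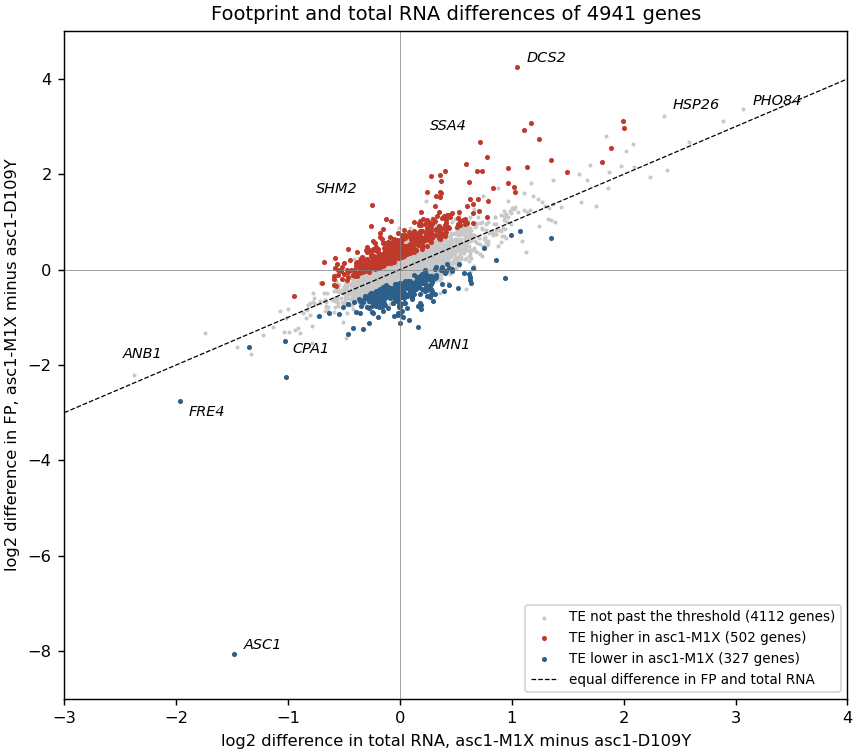
Log2 difference in FP (vertical axis) against that in total RNA (horizontal axis), asc1-M1X minus asc1-D109Y, one point for each of 4941 genes. Red points mark the 502 genes with higher TE in asc1-M1X, blue points the 327 with lower TE, and points on the dashed line differ equally in FP and total RNA. Most genes lie within 1 log2 unit of 0, with ASC1 alone at the foot at -8.06 in FP.

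Genes with the largest positive TE differences included stress chaperones and a gene of carbohydrate storage. SSA4, a stress-inducible Hsp70 chaperone, had 47.7 and 57 footprint RPM in asc1-M1X, against 8.21 and 8.1 in asc1-D109Y. Its total RNA was at 91.1 and 97.1 RPM in asc1-M1X and 56.4 and 57.9 in asc1-D109Y, so the footprints were several times higher and the mRNA less than doubled. TE of SSA4 was 0.523 and 0.587 in asc1-M1X against 0.146 and 0.14 in asc1-D109Y, a log2 difference of 1.96 (SE 0.17, adjusted p = 1.92e-06). SSE2, an Hsp110 partner of Hsp70, likewise had a TE of 0.767 and 1.01 in asc1-M1X against 0.247 and 0.26 in asc1-D109Y (log2 difference 1.80, adjusted p = 0.000107). PGM2, the main phosphoglucomutase, which links glucose phosphates to glycogen and trehalose, had a TE of 0.756 and 0.66 in asc1-M1X against 0.248 and 0.212 in asc1-D109Y (log2 difference 1.62, SE 0.15, adjusted p = 5.38e-06). In all of these genes the 2 cultures of asc1-M1X lay above both cultures of asc1-D109Y, as the rule for naming them required.

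DCS2, a stress-induced regulator of the enzyme that clears mRNA caps, had the largest TE difference of the genes with higher TE, at 3.20 (SE 0.48, adjusted p = 0.000318). Its footprints were 67 and 59 reads in asc1-M1X and only 4 and 1 reads in asc1-D109Y, so the size of the difference rests on few reads. YBP1, which the peroxide regulator Yap1 needs, had 90 and 51 footprint reads in asc1-M1X against 7 and 6 in asc1-D109Y (TE difference 1.90, adjusted p = 0.00544). AYT1, an acetyltransferase, had a TE of 1.21 and 1.3 in asc1-M1X against 0.392 and 0.422 in asc1-D109Y (log2 difference 1.63, adjusted p = 5.83e-06), and SCW11, of the cell wall glucanase family, 0.334 and 0.33 against 0.126 and 0.0717 (1.69, adjusted p = 0.000203). ARO10, the decarboxylase that makes fusel aldehydes from aromatic amino acids, and the ORF YMR084W differed by 1.67 (adjusted p = 0.00456) and 1.60 (adjusted p = 0.00487) on 7 to 14 footprint reads per asc1-D109Y library. ARO10 missed the threshold without replicate 2 of asc1-D109Y (1.45, adjusted p = 0.0581) and YMR084W without replicate 1 of asc1-D109Y (1.23, adjusted p = 0.0913).

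**Figure D2:**
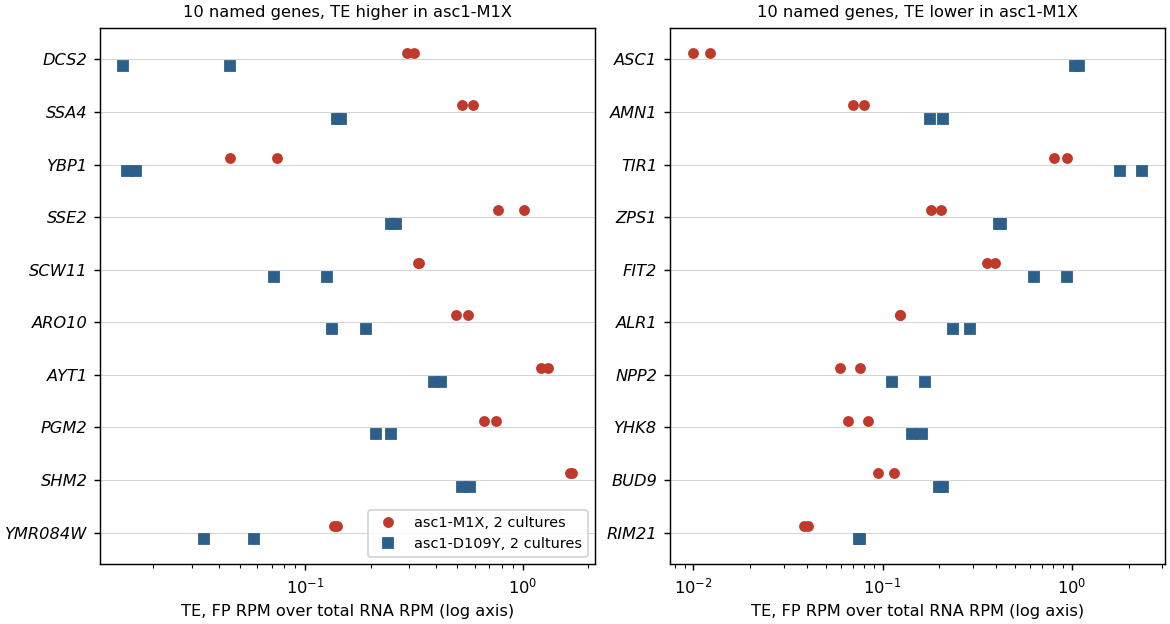
TE of each culture (FP over total RNA RPM, log axis) for 10 named genes with higher TE in asc1-M1X (left) and 10 with lower TE (right), ordered by the size of the difference. Red circles are the 2 asc1-M1X cultures and blue squares the 2 asc1-D109Y cultures, and in every gene drawn the strains do not overlap, as the rule for naming them required.

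Glycine and one-carbon supply held 2 of the 3 genes with the smallest p for higher TE. SHM2, the cytosolic serine hydroxymethyltransferase that makes glycine and one-carbon units from serine, had 965 and 945 footprint RPM in asc1-M1X, against 392 and 353 in asc1-D109Y. Its total RNA was 570 and 572 in asc1-M1X and 745 and 618 in asc1-D109Y. Footprints of SHM2 were thus higher while its mRNA was lower, and TE was 1.69 and 1.65 in asc1-M1X against 0.527 and 0.572 in asc1-D109Y (log2 difference 1.61, SE 0.10, adjusted p = 5.78e-08). GLY1, the threonine aldolase that makes glycine from threonine, had a TE of 1.54 and 1.71 in asc1-M1X against 0.791 and 0.837 in asc1-D109Y (adjusted p = 1.92e-06), with footprints higher by 0.85 on the log2 scale. MTD1 (0.49, adjusted p = 0.00616), a folate dehydrogenase, and GCV1 (0.51, adjusted p = 0.0196), a subunit of the glycine cleavage complex, also had higher TE. Of 22 one-carbon and glycine genes, 5 were higher and 1 lower in TE, and 9 and 1 with the culture as a block. The main-fit calls were 22.7% and 4.55% of the list, against 10.2% and 6.62% of all genes tested. The median of the list was 0.16 where all genes had one of 0.00. The higher calls numbered 3 without replicate 2 of either strain. The mitochondrial SHM1 (TE difference 0.17, adjusted p = 0.148, and 0.0281 with the culture as a block) and the glycine cleavage subunit GCV2 (0.13, adjusted p = 0.561) did not pass.

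Genes of storage carbohydrates stood higher in asc1-M1X at every level measured. Of 18 tested genes for trehalose and glycogen, 16 rose in FP, none fell, and the median log2 difference was 0.80. In total RNA 13 rose and 1 fell (median 0.40), and in TE 12 rose and none fell (median 0.42). The count of higher TE calls in the list was 10 without replicate 1 of asc1-M1X, 7 without its replicate 2, 9 without replicate 1 of asc1-D109Y and 8 without its replicate 2, with medians of 0.42 to 0.43. Genes that make and genes that break down both stores were among them. TSL1, a subunit of the trehalose synthase complex, had a TE of 1.07 and 1.14 in asc1-M1X, against 0.642 and 0.631 in asc1-D109Y (log2 difference 0.79, adjusted p = 0.000111), and TPS1, the synthase itself, had 1.33 and 1.26 against 0.96 and 0.941 (0.44, adjusted p = 0.00184). NTH1, the neutral trehalase that breaks trehalose down, was also higher in TE by 0.68 (adjusted p = 6.18e-05). On the glycogen side, the synthase GSY2 (0.72, adjusted p = 0.00956), the branching enzyme GLC3 (0.79, adjusted p = 0.00271) and the phosphorylase GPH1 (0.89, adjusted p = 0.0121) were higher in TE. PGM1, the minor phosphoglucomutase, was the gene of the list that fell in mRNA, at 181 and 179 RPM in asc1-M1X against 236 and 224 in asc1-D109Y, with TE higher by 0.57 (adjusted p = 0.000103).

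Enzymes of glycolysis and fermentation had less mRNA and higher TE in asc1-M1X. Of 23 tested genes, 14 fell and 6 rose in total RNA (median -0.32), while in TE 10 rose and none fell (median 0.24), and 10 rose and 11 fell in FP (median 0.11). PFK2, a subunit of phosphofructokinase, had 952 and 916 total RNA RPM in asc1-M1X, against 1331 and 1230 in asc1-D109Y. Its footprint level was 2380 and 2365 in asc1-M1X, against 2137 and 1966 in asc1-D109Y, and its TE was 2.5 and 2.58 against 1.61 and 1.6 (log2 difference 0.66, adjusted p = 3.35e-05). The mRNA of PFK2 was thus lower and its footprints higher, and PFK1, the other subunit, did the same (total RNA -0.37, adjusted p = 0.000425, TE 0.51, adjusted p = 8.78e-05). The entry step divided by isoform. HXK2, the hexokinase of high glucose, had less mRNA (-0.59, adjusted p = 1.24e-05), while HXK1 and GLK1, the kinases known to be repressed by glucose, had more footprints, by 2.26 and 1.05 on the log2 scale (adjusted p = 1.3e-19 and 2.5e-15), and all 3 were higher in TE. TDH3, the main glyceraldehyde phosphate dehydrogenase, fell by 0.59 in FP and by 0.58 in total RNA with no call in TE (-0.01, adjusted p = 0.97), and the minor isoform TDH1 rose by 1.18 in FP. The list held 7, 6, 9 and 8 higher TE calls without replicate 1 or 2 of asc1-M1X and without replicate 1 or 2 of asc1-D109Y, in this order, and 14 with the culture as a block.

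Heat shock chaperones were higher in asc1-M1X in both footprints and mRNA. Of 26 tested, 20 rose and 1 fell in FP (median 0.50), and 19 rose and 1 fell in total RNA (median 0.49). In TE 6 rose (23.1%, against 10.2% of all genes tested) and 2 fell (7.69%, against 6.62%), with a median of 0.07. With the culture as a block, 11 rose and 2 fell in TE. HSP26, a small heat shock protein, had 20.8 and 27.4 total RNA RPM in asc1-M1X, against 4.02 and 5.19 in asc1-D109Y, a log2 difference of 2.36 (adjusted p = 5.24e-06). HSP82, the inducible Hsp90, had 625 and 676 in asc1-M1X against 321 and 333 in asc1-D109Y (0.99, adjusted p = 1.77e-07), and its TE difference of 0.19 missed the threshold (adjusted p = 0.0986) but passed with the culture as a block (adjusted p = 0.00836). The Hsp90 co-chaperone AHA1 had more mRNA (1.07, adjusted p = 1e-07) and lower TE (-0.26, adjusted p = 0.0272). HSP104, the disaggregase, was higher in FP by 1.45, in total RNA by 0.79 and in TE by 0.66 (adjusted p = 0.00018). SSA2, a constitutive Hsp70, did not pass in FP (0.02, adjusted p = 0.669) or total RNA (-0.04, adjusted p = 0.612), while the inducible SSA1 rose by 1.17 in FP (adjusted p = 5.46e-16). Reads that fit more than one place were not counted, so values of near-identical pairs such as SSA1 and SSA2, PGM1 and PGM2 or the paired ribosomal protein genes rest on the parts where they differ. Of 35 proteasome genes, 20 rose and 2 fell in FP (median 0.19), and 7 rose and 1 fell in TE (median 0.10). The TE calls were 20% and 2.86% of the list, against 10.2% and 6.62% of all genes tested. The higher TE calls of the proteasome numbered 4 without replicate 1 of asc1-M1X, 2 without replicate 1 of asc1-D109Y, and 1 without replicate 2 of either strain.

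Genes for ribosomal proteins were mostly lower in asc1-M1X. Of 131 tested genes of the cytosolic ribosome, 128 fell and 2 rose in FP (median -0.44). In total RNA 76 fell and 2 rose (median -0.21), a count of lower calls that was 24 by library size alone, 39 without replicate 1 of asc1-M1X, 69 without its replicate 2, 96 without replicate 1 of asc1-D109Y and 42 without its replicate 2. In TE 37 fell and 1 rose (median -0.21), and 129 of the 131 differences were below 0. The median TE difference was -0.23 between the strains' first replicates and -0.21 between their second. With the culture as a block 110 fell and 1 rose, whereas the count of lower TE calls was 15 without replicate 1 of asc1-M1X, 2 without its replicate 2, 12 without replicate 1 of asc1-D109Y and 52 without its replicate 2. The sign of the list's TE median held in each of these settings (-0.18 to -0.26), and the number of single genes past the threshold did not. In the large subunit 77 of 78 genes fell in FP and in the small subunit 51 of 53, with TE medians of -0.22 and -0.20.

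Among single genes of the cytosolic ribosome, RPL3, a large core protein of the big subunit, fell by 0.44 in FP and by 0.31 in total RNA (adjusted p = 3.14e-09 and 0.00158), with a TE difference of -0.14 (adjusted p = 0.165, and 0.00423 with the culture as a block). The exceptions were RPS22B and RPS14B. RPS22B had 273 and 268 footprint RPM in asc1-M1X, against 148 and 126 in asc1-D109Y (log2 difference 0.98, adjusted p = 7.64e-13), more mRNA (0.65, adjusted p = 9.41e-06) and higher TE (0.33, adjusted p = 0.0287). RPS14B rose by 0.42 in FP (adjusted p = 1.36e-07) and by 0.38 in total RNA (adjusted p = 0.000722), with a TE difference of 0.04 (adjusted p = 0.805).

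Proteins of the mitochondrial ribosome, which are made in the cytosol, were lower in footprints: of 77 tested genes 46 fell and 2 rose in FP (median -0.29). Total RNA gave 12 lower calls (15.6%, near the 16.1% of all genes tested) and 1 higher (median -0.13). By library size alone it gave 1 lower and 7 higher, with a median of -0.01. The lower calls in total RNA numbered 6 without replicate 1 of asc1-M1X, 2 without its replicate 2 and 7 without replicate 1 of asc1-D109Y. In TE 9 fell (11.7%, against 6.62% of all genes tested) and none rose (median -0.19). Of the 77 differences 64 lay below 0, and with the culture as a block 19 fell and none rose. The TE count was 4 without replicate 1 of asc1-M1X, 0 without its replicate 2, and 4 without either replicate of asc1-D109Y, with medians of -0.17 to -0.22. MRP2, a protein of the small mitochondrial subunit, had a TE of 1.22 and 0.951 in asc1-M1X against 1.77 and 1.65 in asc1-D109Y (log2 difference -0.64, adjusted p = 0.0159). MRPL50, of the large subunit, had 1.05 and 1.12 against 1.79 and 1.57 (-0.60, adjusted p = 0.0229). Both had fewer footprints and no call in total RNA.

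**Figure D3:**
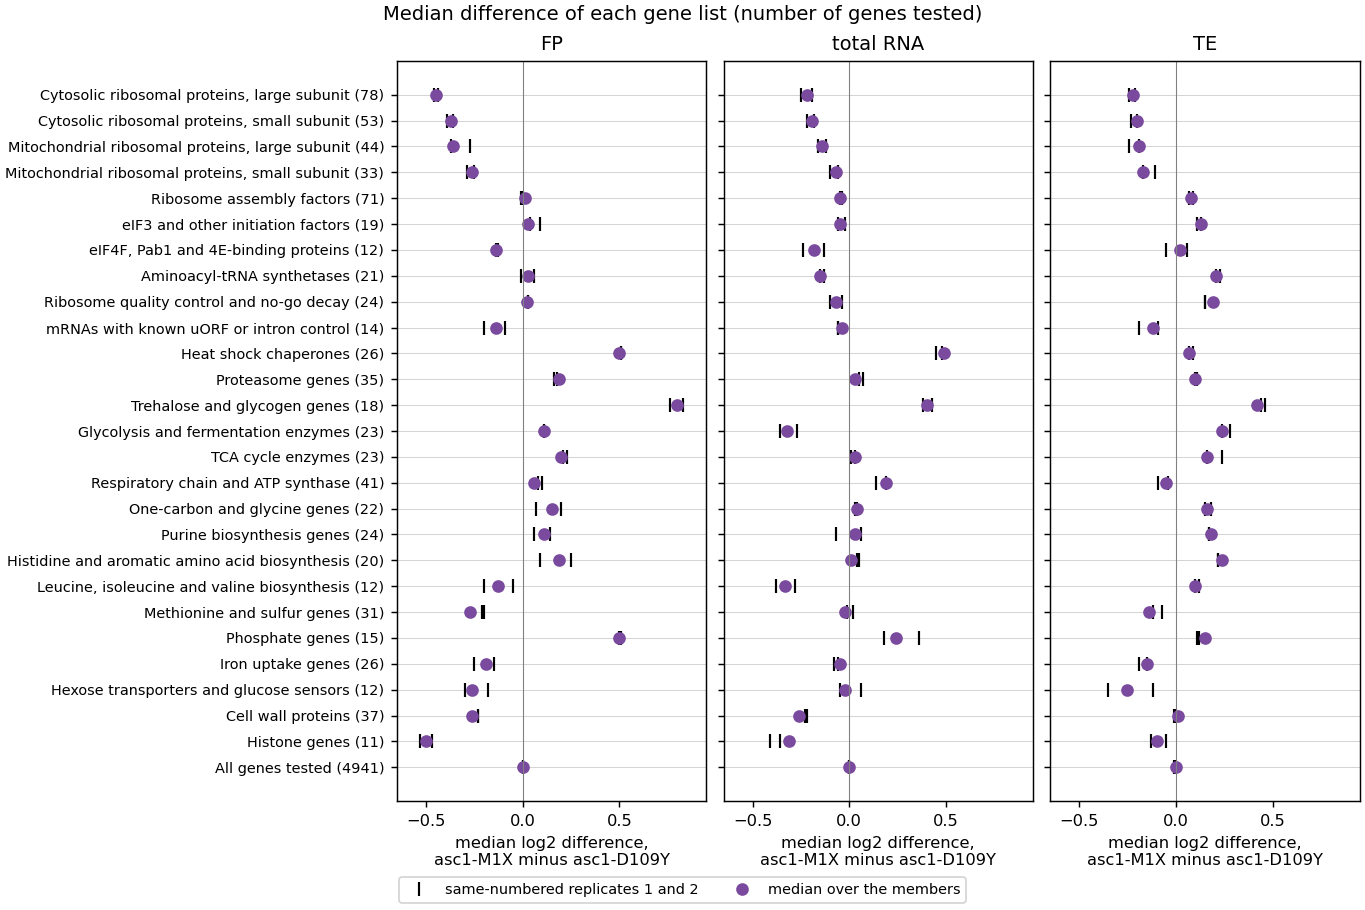
Median log2 difference, asc1-M1X minus asc1-D109Y, of 26 gene lists and of all genes, in FP (left), total RNA (middle) and TE (right), with the number of genes tested in parentheses. Purple circles are medians over the members and black ticks the medians between the first and between the second replicates of both strains. Trehalose and glycogen genes lie furthest to the right in FP (0.80), and histone genes (-0.50) and large-subunit ribosomal proteins (-0.45) furthest to the left.

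Of 21 cytosolic aminoacyl-tRNA synthetases, the enzymes that charge tRNAs, 7 fell and none rose in total RNA (median -0.15), or 2 and 1 by library size alone, and 9 rose and none fell in TE (median 0.21). CDC60, the leucine enzyme, had a TE of 1.48 and 1.47 in asc1-M1X against 1.12 and 1.11 in asc1-D109Y (log2 difference 0.40, adjusted p = 0.000708). The higher TE calls of the synthetases numbered 4 without replicate 1 of asc1-M1X, 3 without its replicate 2, 6 without replicate 1 of asc1-D109Y, 4 without its replicate 2, and 14 with the culture as a block. The lower calls in total RNA numbered 2 and 3 without replicate 1 and 2 of asc1-M1X and 4 without replicate 1 of asc1-D109Y. YEF3, the elongation factor specific to fungi, had less mRNA (-0.50, adjusted p = 3.7e-05) and higher TE (0.40, adjusted p = 0.000639). Elongation and termination factors did not rise in TE as a group: of 14 tested, 2 rose and 2 fell (median 0.06). DED1, a helicase of scanning, had a TE of 2.67 and 2.89 in asc1-M1X against 1.87 and 2.01 in asc1-D109Y (0.52, adjusted p = 0.00164). A list of 12 genes covered eIF4F and Pab1, which hold the closed mRNA loop together, and the 4E-binding proteins, repressors not expected in that loop. Of these 12 genes, 6 fell and 2 rose in FP, and 1 rose in TE (8.33%, against 10.2% of all genes tested). PAB1, the poly(A)-binding protein, fell by 0.44 in FP and by 0.24 in total RNA (adjusted p = 2.4e-09 and 0.00884), with a TE difference of -0.20 (adjusted p = 0.0512, and 0.000489 with the culture as a block).

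Among 24 genes of ribosome quality control and no-go decay, the processes Asc1 is best known for, 6 rose and 1 fell in TE (median 0.19). These were 25% and 4.17%, against 10.2% and 6.62% of all genes tested. SKI2 and SKI3, the helicase and scaffold of the Ski complex that feeds mRNA to the exosome, had less mRNA and higher TE, by 0.71 (adjusted p = 2.99e-05) and 0.78 (adjusted p = 9.46e-06). TE of SKI3 was 1.1 and 1.07 in asc1-M1X against 0.607 and 0.658 in asc1-D109Y. XRN1, the exonuclease that degrades mRNA from the other end, was the gene that fell: its TE was 0.554 and 0.578 in asc1-M1X against 0.707 and 0.707 in asc1-D109Y (-0.32, adjusted p = 0.00848). HBS1, which with Dom34 frees stalled ribosomes, was higher in TE by 0.31 (adjusted p = 0.0293), whereas DOM34 (-0.05, adjusted p = 0.802), the ubiquitin ligase HEL2 (-0.15, adjusted p = 0.252) and RQC2 (0.13, adjusted p = 0.29) did not pass. Higher TE calls of this list numbered 2 without either replicate of asc1-M1X and 4 without either replicate of asc1-D109Y.

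Of 14 mRNAs known to be controlled by an upstream ORF or an intron, 4 fell and 1 rose in TE. These were 28.6% and 7.14%, against 6.62% and 10.2% of all genes tested. The median was -0.12, or -0.09 between the first and -0.19 between the second replicates. CPA1 encodes the small subunit of the arginine-specific carbamoyl phosphate synthetase, and its mRNA carries an upstream ORF whose peptide stalls ribosomes when arginine is plentiful. It had 84.5 and 81.8 footprint RPM in asc1-M1X, against 225 and 198 in asc1-D109Y. TE of CPA1 was 0.178 and 0.181 in asc1-M1X against 0.331 and 0.333 in asc1-D109Y, a log2 difference of -0.89 (SE 0.10, adjusted p = 2.99e-05). HAC1, the transcription factor of the unfolded protein response whose intron blocks translation until it is removed, had 36 and 34.2 footprint RPM in asc1-M1X, against 77 and 59.6 in asc1-D109Y, at total RNA levels of 1470 and 1382 against 1534 and 1430. Its TE difference was -0.91 (adjusted p = 0.000128). YAP1 (-0.32, adjusted p = 0.0124) and HOL1 (-0.48, adjusted p = 0.0291) also fell in TE. The number of lower calls in the list was 3 without replicate 1 of either strain and 2 without replicate 2 of either. GCN4, the best known mRNA with upstream ORFs, had a TE of 0.25 and 0.242 in asc1-M1X and 0.257 and 0.26 in asc1-D109Y, a small difference without overlap that did not pass the test (-0.08, adjusted p = 0.484).

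The largest negative TE differences besides ASC1 included genes of the cell surface and cell division. AMN1, an antagonist of mitotic exit that keeps daughter cells attached, had 9.36 and 8.2 footprint RPM in asc1-M1X, against 19.7 and 21.2 in asc1-D109Y, with total RNA of 117 and 117 against 110 and 101. Its TE was 0.0797 and 0.0699 in asc1-M1X against 0.179 and 0.209 in asc1-D109Y (log2 difference -1.37, SE 0.15, adjusted p = 2.44e-05). ALR1, a magnesium transporter, had 28.1 and 25.9 footprint RPM in asc1-M1X, against 64.8 and 50.9 in asc1-D109Y, with TE of 0.123 and 0.124 in asc1-M1X against 0.291 and 0.237 in asc1-D109Y (-1.11, SE 0.13, adjusted p = 3.81e-05). TIR1, a cell wall mannoprotein, differed by -2.25 in FP, by -1.02 in total RNA and by -1.24 in TE (adjusted p = 0.0024 for TE). ZPS1, a GPI-anchored protein, differed in TE by -1.13 (adjusted p = 0.00145), the bud site protein BUD9 by -0.96 (adjusted p = 0.0047) and the pH sensor RIM21 by -0.94 (adjusted p = 0.00388). GDS1, a gene whose role is not well known, had the smallest p for lower TE after ASC1, with 131 and 134 footprint RPM in asc1-M1X against 223 and 223 in asc1-D109Y at even mRNA levels (TE difference -0.74, SE 0.07, adjusted p = 7.51e-06). YPS1, a cell surface protease, was opposite to these, with a TE of 1.19 and 1.17 in asc1-M1X against 0.542 and 0.558 in asc1-D109Y (1.10, adjusted p = 5.38e-06).

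Calls of the shallower genes were less stable. NPP2, a nucleotide pyrophosphatase, fell in TE by 1.02 (adjusted p = 0.0227) on 24 to 41 footprint reads per library, and missed the threshold without replicate 1 of asc1-M1X (-0.84, adjusted p = 0.152), without its replicate 2 (-1.18, adjusted p = 0.0796) and without replicate 2 of asc1-D109Y (-0.73, adjusted p = 0.177). YHK8, a presumed antiporter, fell by 1.01 (adjusted p = 0.0189) and missed it without replicate 2 of asc1-M1X (-0.86, adjusted p = 0.116), without replicate 1 of asc1-D109Y (-1.09, adjusted p = 0.0529) and without its replicate 2 (-0.93, adjusted p = 0.0816). BUD9 missed it without replicate 1 of asc1-M1X (-0.81, adjusted p = 0.0548). The sign was the same in all of these.

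Of 26 tested genes of iron uptake, 12 fell and 1 rose in FP. Lower TE calls made up 30.8% of the list, against 6.62% of all genes tested. In total RNA 7 fell and 1 rose (median -0.05), but 6 fell and 8 rose by library size alone (median 0.07). In TE 8 fell and none rose (median -0.15), a count of lower calls that was 8 without replicate 1 of asc1-M1X, 3 without its replicate 2, and 7 without either replicate of asc1-D109Y. ENB1 and SIT1, transporters of iron-bound siderophores, fell in TE by 0.91 (adjusted p = 0.000128) and 0.49 (adjusted p = 0.00984), and AFT1, the transcription factor of the iron regulon, by 0.51 (adjusted p = 0.00376). TE of AFT1 was 0.175 and 0.165 in asc1-M1X against 0.248 and 0.232 in asc1-D109Y. FRE1, a reductase for iron and copper, fell by 0.55 (adjusted p = 0.00169), and the high-affinity oxidase FET3 did not pass (-0.21, adjusted p = 0.101, and 0.00336 with the culture as a block). FRE4, a further reductase, was the largest difference of mRNA in the list, with 52.5 and 55.4 total RNA RPM in asc1-M1X against 219 and 203 in asc1-D109Y (-1.97, adjusted p = 2.46e-09), and its TE was lower as well (-0.79, adjusted p = 0.000749). FIT2, a mannoprotein that holds siderophore iron in the wall, had more mRNA (0.94, adjusted p = 0.00282) and lower TE (-1.11, adjusted p = 0.025). That TE call of FIT2 was lost without replicate 1 of asc1-M1X (-1.18, adjusted p = 0.0778), without its replicate 2 (-1.04, adjusted p = 0.162), and without replicate 1 of asc1-D109Y (-0.75, adjusted p = 0.295).

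Hexose transporters and glucose sensors were lower in footprints, 8 of 12 tested falling and 1 rising in FP (median -0.26). In TE 2 fell (16.7%, against 6.62% of all genes tested), and all 12 differences lay below 0 (median -0.25). The TE median was -0.12 between the first replicates and -0.35 between the second. The lower FP calls numbered 4 without replicate 2 of asc1-M1X and also by library size alone, and 1 lower TE call was left without any one culture. HXT1, a low-affinity glucose transporter, fell by 0.72 in FP and by 0.55 in total RNA (adjusted p = 5.32e-09 and 3.53e-05). RGT1, the repressor of the transporter genes, had more mRNA, at 282 and 238 RPM in asc1-M1X against 192 and 170 in asc1-D109Y, and a TE of 0.0891 and 0.0815 against 0.145 and 0.177 (-0.90, adjusted p = 0.00187).

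The largest differences in mRNA included phosphate genes. PHO84, the high-affinity phosphate transporter, had 324 and 378 total RNA RPM in asc1-M1X, against 30.4 and 51.5 in asc1-D109Y, a log2 difference of 3.07 (adjusted p = 9.18e-09). Its footprints differed by 3.36 and its TE did not pass (0.29, adjusted p = 0.556). PHO84 is overlapped by an antisense RNA in the R64 annotation, and whether counting used the strand is not given in the sources used here. PHO89, a sodium-coupled phosphate transporter, had 24.3 and 27.6 total RNA RPM in asc1-M1X, against 3.49 and 3.46 in asc1-D109Y (2.89, adjusted p = 3.4e-07). Of 15 tested phosphate genes 11 rose and 1 fell in FP (median 0.50), and 7 rose and 1 fell in total RNA (median 0.24). VTC1 and VTC3, which make polyphosphate, rose in total RNA by 0.60 and 0.80 (adjusted p = 0.000143 and 8.64e-06) with TE differences of -0.01 and -0.03. PHO4, the transcription factor of the pathway, was higher in TE (0.56, adjusted p = 0.00544) with no call in its mRNA.

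Further large differences of mRNA were spread over functions. ATG39, a receptor for the autophagy of the nuclear envelope, and SPR28, a septin of sporulation, were higher in asc1-M1X by 2.58 and 2.39 in total RNA (adjusted p = 0.000158 and 3.79e-05), both on low counts. MIP6, an RNA-binding protein, rose by 3.11 in FP and by 1.99 in total RNA (adjusted p = 6.4e-13 and 1.1e-05). ANB1, the form of eIF5A made at low oxygen, had 9.6 and 8.02 total RNA RPM in asc1-M1X, against 47.7 and 44.4 in asc1-D109Y (-2.38, adjusted p = 1.29e-07). MDH2, the cytosolic malate dehydrogenase, had 55.9 and 46.4 against 195 and 148 (-1.74, adjusted p = 3.4e-07), NFG1, a negative regulator of filamentous growth, had 48.9 and 55.1 against 155 and 133 (-1.46, adjusted p = 1.63e-07), and MET2, of methionine synthesis, had 11.5 and 13 against 30.9 and 30.9 (-1.33, adjusted p = 2.05e-05). In each of these genes the strains did not overlap in total RNA, which the rule for naming required of all but MIP6 and MET2.

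In histidine and aromatic amino acid synthesis 9 of 20 tested genes rose and none fell in TE (median 0.24), with 5 higher TE calls without either replicate of asc1-M1X, 7 without replicate 1 and 5 without replicate 2 of asc1-D109Y. HIS7, which makes the imidazole ring, had a TE of 1.04 and 1.12 in asc1-M1X against 0.625 and 0.668 in asc1-D109Y (0.74, adjusted p = 1.05e-05). In leucine, isoleucine and valine synthesis 9 of 12 fell and none rose in total RNA (median -0.33) while 4 rose and none fell in TE, or 2 without replicate 2 of asc1-M1X. ILV5, an early enzyme of that pathway, had 1920 and 1889 total RNA RPM in asc1-M1X, against 3060 and 2938 in asc1-D109Y (-0.65, adjusted p = 4.26e-06). CIT2, the peroxisomal citrate synthase, had less mRNA (-0.68, adjusted p = 3.42e-06) and a TE of 0.344 and 0.319 in asc1-M1X against 0.182 and 0.187 in asc1-D109Y (0.85, adjusted p = 5.38e-06).

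TE differences were related to gene length. The median log2 TE difference was -0.17 for 356 genes shorter than 450 nt, -0.07 for 1138 genes from 450 to under 900 nt, 0.03 both for 1989 genes from 900 to under 1800 nt and for 1018 genes from 1800 to under 3000 nt, and 0.11 for 440 genes of 3000 nt or more. Higher TE in asc1-M1X was called for 0.562% of the shortest class and 21.8% of the longest, and lower TE for 8.99% and 7.05%. The share of calls also depends on read depth, which was not matched between classes. Spearman's rank correlation of length with the TE difference over the 4941 genes was 0.22, and 0.19 and 0.21 in the first and in the second replicates of both strains. It was 0.19 over the 4733 genes left without those for cytosolic and mitochondrial ribosomal proteins, where the median of the shortest class was -0.15. The rank correlation of length was 0.02 with the FP difference and -0.19 with the total RNA difference, and the median total RNA difference was 0.03, 0.06, 0.01, -0.04 and -0.10 from the shortest to the longest class. Between replicates of one strain, TE was related to length as well, with a rank correlation of -0.14 for replicate 1 minus replicate 2 in asc1-M1X and -0.09 in asc1-D109Y, where there is no difference of genotype. In both strains the FP library of replicate 1, unlike that of replicate 2, also holds reads of a second preparation. The part of differences between libraries in the relation was not tested.

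**Figure D4:**
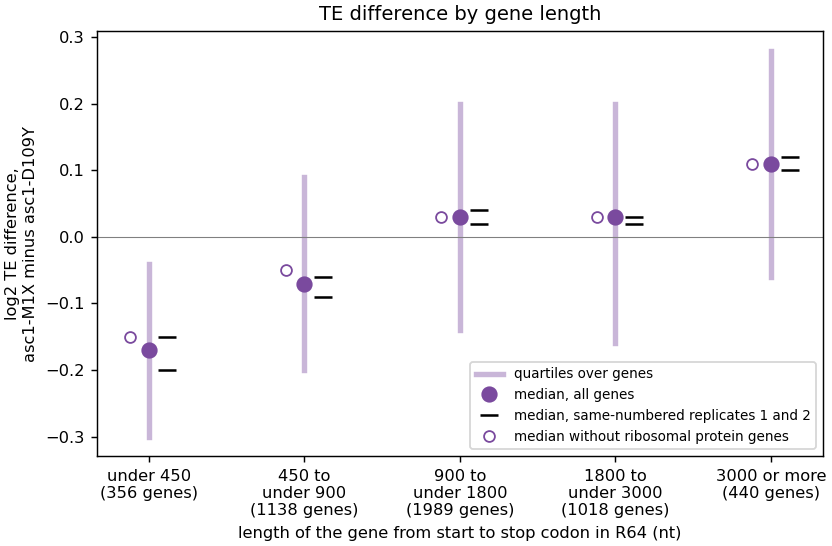
Log2 TE difference, asc1-M1X minus asc1-D109Y, in 5 classes of gene length in nt, with the number of genes in brackets. Filled circles are medians, pale bars run between the quartiles over genes, black ticks are the medians of the first and of the second replicates of both strains, and open circles leave out ribosomal protein genes. The median goes from -0.17 in the shortest to 0.11 in the longest class, and the quartile ranges of neighbouring classes overlap.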

How the data were processed

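Ribosome footprints and poly(A)-selected RNA fragments were sequenced from 2 isolates of each strain. The deposited raw counts came from TopHat alignments to the genome of the Sigma1278b background and are, per the authors' methods, counts of uniquely placed reads per ORF, leaving out the first 30 codons. Deposited RPKM values, scaled counts and the authors' log2 fold changes were not used. Of 5573 ORFs, 19 encoded in mitochondria were set aside, and 5551 of the rest matched the R64 annotation, which gave names and lengths only (start to stop codon, introns included, in place of the protein lengths first planned). Raw counts were tested with edgeR 4.0.16 in R 4.3.3 (TMM scaling within each library type, quasi-likelihood test, Benjamini-Hochberg adjustment, threshold 0.05). TE was tested as the interaction of library type and strain. Levels are TMM-scaled RPM, reads scaled to a common library size, not divided by length, and are not compared between genes. The test was checked on simulated counts.

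Genes were named if they were ASC1, members of a gene list, among the 3 smallest p-values of TE each way, or among the largest differences. The largest were the 10 in TE or the 5 in FP or total RNA each way that passed the threshold without overlap of strains. Genes named by rank also needed a mean of at least 32 reads in either strain, in FP and in total RNA. A gene could thus qualify with few reads in the strain where it was low. Members and lists were chosen with earlier results of these data known. FP and total RNA of one culture share an extract, which pairs them. Their replicate deviations had an r over genes of 0.15 (asc1-M1X) and 0.25 (asc1-D109Y). Alternatives were DESeq2 1.42.0, other scalings and filters, blocks, a spread shared with 3 other mutants, and leaving out each culture. With 2 isolates a strain, p-values rest only on these cultures, and the spread of each gene was estimated with help from the other genes. Precision is limited by depth, which ran from 6056934 to 8695026 reads per library. Some genes of the lists are counted in their totals but not reported singly here.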

Additional observations from a re-analysis of the deposited data

Results flagged for a closer look

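Reads on ORFs of the mitochondrial genome, which entered no comparison, exceeded the 3 reads that a count of 0 allows in all 4 FP libraries. The asc1-M1X libraries held 29 and 17 such reads and the asc1-D109Y libraries 110 and 66. In RPM, relative to all reads on ORFs, this was 3.34 and 2.01 in asc1-M1X and 13.7 and 9.91 in asc1-D109Y, with no overlap. Total RNA held 228 and 310 RPM in asc1-M1X and 197 and 221 in asc1-D109Y. The difference was not tested.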

How the results depend on the processing

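Counts of genes called depended on how the spread was estimated. For total RNA (1620 genes), DESeq2 called 932, a spread shared with 3 other mutants 897, and the block by replicate number 2433. For TE (829 genes), DESeq2 called 495, the shared spread 374, the block by replicate number 1454 and the block by culture 1404. Without one culture, TE calls ranged from 270 to 529, FP calls from 2062 to 2304 and total RNA calls from 1091 to 1461. Libraries of the 2 strains can be paired by replicate number, and in FP those of replicate 1 both hold a second preparation. Their same-numbered deviations correlated across genes with r = 0.12 in FP, 0.33 in total RNA and 0.10 in TE. Whether same-numbered libraries share a batch was not tested. The median total RNA difference of iron uptake genes was 0.07 by library size alone, against -0.05. The rank correlation of length with the TE difference (0.22) ranged from 0.17 to 0.24 without one culture and was 0.19 without ribosomal protein genes. Of the labelled values of named genes over all alternatives, 460 kept their call, 13 lost it and 0 reversed. These genes were chosen for large differences without overlap in the same libraries, which favours calls that are kept. Of the labelled values of gene lists, 49 were the same, 40 moved and 1 reversed. Not every named gene was labelled in every alternative. For TE, 22 genes were labelled with the culture as a block, 19 with DESeq2 and 18 with at least 10 reads in every library. For FP and for total RNA, 8 were labelled under that read minimum and 10 with DESeq2. Besides the losses given with the genes, FIT2 lost its TE call under the shared spread (-1.13, adjusted p = 0.0801). Shallow genes such as DCS2, with 4 and 1 footprint reads in asc1-D109Y, limit the precision of the largest fold changes.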

Other observations

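Histone genes were lower in asc1-M1X: 10 of 11 fell and 1 rose in FP (median -0.50), and 9 fell and 1 rose in total RNA (median -0.31), with 6 lower total RNA calls without replicate 2 of either strain and also by library size alone. HTA2, a gene for histone H2A, had 250 and 259 footprint RPM in asc1-M1X, against 415 and 446 in asc1-D109Y, and total RNA of 215 and 214 against 322 and 354. No histone gene passed in TE (edgeR, median -0.10), and 3 fell with the culture as a block.

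Of 37 tested cell wall genes, 22 fell and 8 rose in FP and 20 fell and 5 rose in total RNA (median -0.26 in both), with no such shift in TE (median 0.01).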
